A study of Drosophila melanogaster with 2 samples.

Results

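Escargot ChIP-seq peaks nearest to homeobox and Pax genes other than the Hox genes and the NK cluster were examined in Drosophila melanogaster embryos. A fixed list of 49 such genes was taken, and a peak counted for a gene when, of all protein-coding start sites, one of that gene lay nearest to the summit, the base of highest enrichment. This assignment by distance does not show that the gene is a target. Of the 49 genes, 14 were nearest to at least 1 peak, and together they held 31 of the 4397 peaks on the 7 chromosome arms. The reference set was all 13968 protein-coding genes of the annotation.

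Chromatin immunoprecipitation followed by sequencing (ChIP-seq) recovers the DNA that a chosen protein is attached to. Whole embryos aged 0 to 24 h carried escargot (esg) fused to enhanced GFP, and chromatin sheared to 200 to 800 bp was precipitated through the GFP tag. The study has 1 group of 2 biological replicates, both with the tagged transgene, and no second genotype or treatment, so the spread between conditions cannot be measured and no p-value is given. Embryos of all ages and tissues were pooled, and the labels give neither the promoter nor the cells in which the fusion protein was made. The peak list used is the authors' conservative list, selected by the irreproducible discovery rate (IDR), a measure of how well peak ranks repeat between replicates. Each peak carries a signal value from the authors whose unit is not stated, so it serves only to rank and describe peaks within 1 list. Read depth is unknown. The list holds 4419 peaks in all, the thresholded lists of the replicates alone hold 3138 and 3357, and the ranked lists before the threshold hold 62029 and 32946. In pooled embryos, binding in fewer cells and weaker binding per cell cannot be told apart.

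Homeobox genes encode transcription factors with a DNA-binding homeodomain, and Pax genes encode factors with a paired domain, which many carry beside a homeodomain. In the fly embryo they give cells their place and type: head segments, neurons, glia, muscles, gut and the primordia of the eye and appendages. Their loci are often large, with regulatory elements spread over introns and flanking DNA. Escargot is a zinc finger factor of the Snail family, which is known for repressing transcription and for binding E-boxes, sites of the form CANNTG, above all CAGGTG.

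The sequences below show what lay under the peaks. The first 5 are the 101 bp around a summit in each of 5 classes, the strongest of the class except for oc, which stands for the paired-like genes in place of a slightly stronger PHDP peak that is not shown, and the last 2 are the 201 bp around the summits that held CAGGTG. They are given 5′ to 3′ on the plus strand of dm6, read from the RefSeq release 6 assembly, and capitals mark every CANNTG.
Poxm, chr3R:8334137-8334237: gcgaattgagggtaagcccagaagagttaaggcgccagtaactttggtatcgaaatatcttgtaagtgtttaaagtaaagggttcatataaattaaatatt
ct, chrX:7618327-7618427: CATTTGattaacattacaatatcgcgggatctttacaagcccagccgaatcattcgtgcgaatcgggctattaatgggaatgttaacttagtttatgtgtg
ems, chr3R:13914893-13914993: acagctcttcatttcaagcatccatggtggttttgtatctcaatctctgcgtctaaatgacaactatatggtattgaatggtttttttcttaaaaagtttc
oc, chrX:8656723-8656823: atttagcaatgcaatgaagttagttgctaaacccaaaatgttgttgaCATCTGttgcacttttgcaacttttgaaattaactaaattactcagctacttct
Lim1, chrX:8774208-8774308: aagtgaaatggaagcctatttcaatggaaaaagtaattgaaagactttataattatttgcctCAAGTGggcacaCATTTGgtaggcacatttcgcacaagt
tup, chr2L:18881499-18881699: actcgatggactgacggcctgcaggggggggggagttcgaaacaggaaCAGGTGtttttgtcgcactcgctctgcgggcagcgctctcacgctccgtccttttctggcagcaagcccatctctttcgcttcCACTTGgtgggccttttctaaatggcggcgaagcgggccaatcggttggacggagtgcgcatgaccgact
Vsx1, chrX:5604246-5604446: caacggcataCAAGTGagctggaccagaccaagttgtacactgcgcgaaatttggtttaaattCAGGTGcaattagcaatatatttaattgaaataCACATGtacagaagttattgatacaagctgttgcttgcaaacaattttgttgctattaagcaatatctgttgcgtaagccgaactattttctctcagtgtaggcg
The Poxm and ems stretches held no CANNTG, those of ct and oc held 1 each, and the Lim1 stretch held 2. The tup window was rich in G and C at 60.2%, while the Vsx1 window had a GC content of 37.8%.

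The first comparison asked how many of the genes were near a peak, given that a large locus catches more peaks. Of the 49 genes, 14 had a peak, a share of 28.6% (95% exact binomial interval 16.6 to 43.3), beside 20.2% of all protein-coding genes. Locus size was taken as the span for which a start site of the gene is the nearest one, and its median was 18544.5 bp for the 49 genes and 4256 bp for all genes. When each gene was given the share of its own of 5 locus size classes, the number came to 16.0, so the observed count was 0.873 times that number (interval from the binomial bounds 0.507 to 1.32). In the largest of the 5 classes, with loci over 12364 bp, 10 of 35 members had a peak (28.6%), beside 38.1% of all genes of that size. In the 3 smaller classes that held members, 2 of 7, 1 of 4 and 1 of 3 had one, from the larger to the smaller loci, beside 24.0%, 15.8% and 12.9% of all genes. The members' excess over all genes was thus not present in the count held for locus size, and the share in the largest class, which holds most members, was below that of all genes. The 31 peaks also lay close in number to the 34.3 that the members' locus lengths gave at the peak density of their size classes. Of that 34.3, 4.80 came from scro alone, whose closest summit was 1845264 bp away. The members on chromosome 4, where 2 of 80 genes had a peak, gave 1.92 of it and 1.14 of the 16.0 genes. All of these genes were in the largest class, so its numbers include regions almost without peaks. With the upper 50% of the list by signal value, 8 members had a peak (16.3%), beside 12.2% of all genes. This was 0.816 times the number by locus size. With the other thresholded list of the series, 12 members had one (24.5%), beside 17.5% of all genes, and 0.865 times the number by locus size. The order of the raw shares turned round for peaks close to a start. A summit no more than 1000 bp away was found at 5 members (10.2%), beside 19.1% of all genes. A summit inside the transcribed span was found at 6 members (12.2%), beside 11.1% of all genes. One of them was otp, though the summit there was nearest to a start site of Cib2. These shares close to a start and in the span were not held for locus size.

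**Figure D1:**
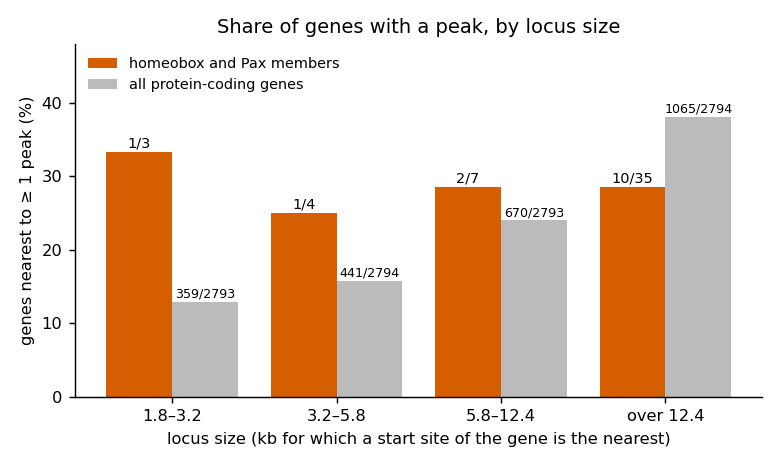
The bars give the percent of genes nearest to at least 1 peak, for the homeobox and Pax members and for all protein-coding genes, in the 4 locus size classes that held members; the fractions above the bars are the counts. Among members 10 of 35 in the largest class had a peak, below the 38.1% of all genes of that size.

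The classes differed in count. Each holds only its genes among the 49, so these are not counts of whole homeobox classes. Further homeobox genes, hth, exd, vvl, nub, pdm2 and ap among them, were counted in the separate list of other homeobox genes. LIM-homeodomain genes, which encode factors with paired LIM zinc fingers beside the homeodomain, had peaks at 3 of 4 members, 10 peaks in all, where locus size gave 1.52 members and locus length 3.95 peaks. When start sites of noncoding genes were included, the 3 genes kept a peak but 4 of the 10 peaks were left, as 4 tup and 2 Awh peaks moved to noncoding RNA genes, and no other class lost a peak. Paired-like genes had peaks at 4 of 12 members (oc, OdsH, PHDP and Vsx1), beside 4.04 by locus size. Of the Pax genes 2 of 8 had peaks (Poxm and eyg, against 2.91), and of the ANTP-class genes 3 of 13 (bcd, ems and B-H2, against 3.97). In the sine oculis class of so, Optix and Six4, whose founder so is an eye determination gene, 1 of 3 genes had peaks (0.779 by locus size), and ct, the sole CUT-class member, had 3. None of the 5 TALE-class members had a peak (1.43 by locus size), nor did the POU members acj6 and pdm3 or the zinc finger homeodomain member zfh2. Most classes hold a handful of genes, so the binomial intervals are wide: 19.4% to 99.4% for the LIM class, and an upper bound of 52.2% for the TALE class.

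**Figure D2:**
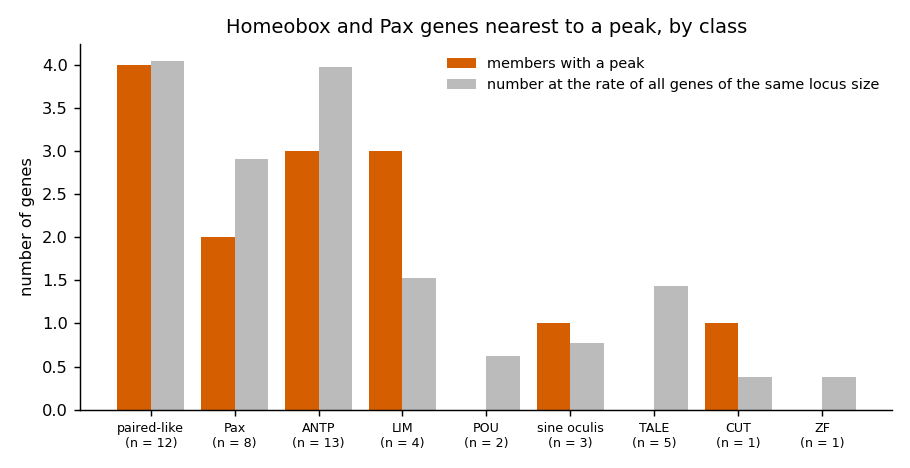
For each class the left bar is the number of members nearest to at least 1 peak and the right bar the number that the share among all genes of the same locus size gives, with n the members in the class, not all its genes (ZF, zinc finger homeodomain). LIM members stand at 3 against 1.52, and TALE members at 0 against 1.43.

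The 31 peaks were of middling to low strength. Ranked by signal value within the list of 4397 peaks, they ran from rank 542 to rank 4232 with a median rank of 2595, which is 59.0% of the way down the list (95% order-statistic interval 45.3% to 71.9%). The upper 50% of the list held 11 of them (35.5%, beside 48.1% of other peaks at genes of like locus size, in 20 classes weighted by the members' peaks). Its top 20% held 1 (3.23%, beside 16.6% at like locus size). That single peak was the one at Poxm.

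Most of the peaks were far from start sites. The median distance was 8832 bp for the members' peaks (order-statistic interval 6092 to 11095), 3598 bp for all peaks at genes of the largest size class, and 1036 bp for all peaks. Of the 31 peaks, 23 lay over 5000 bp away, a share of 74.2%, beside 38.1% of other peaks at genes of like locus size and 23.6% of all peaks. Within 500 bp of a start site there were 6 peaks (19.4%, exact interval 7.45 to 37.5), beside 39.7% of all peaks and 24.6% at like locus size. These 6 peaks belonged to bcd, PHDP, Poxm, so and tup. Each was upstream, as were 85% of all peaks within 500 bp. By annotation 21 of the summits (67.7%) were intergenic, beside 30.6% of other peaks at genes of like locus size. Another 9 (29.0%, beside 62.8%) were in introns, each of them an intron of the member itself (ct, Awh, Lim1, OdsH and Vsx1), and 1 was in a noncoding exon. Peaks of 1 gene are not independent of each other, so the intervals cover counting error only, and the comparisons at like locus size were chosen after the data were seen.

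**Figure D3:**
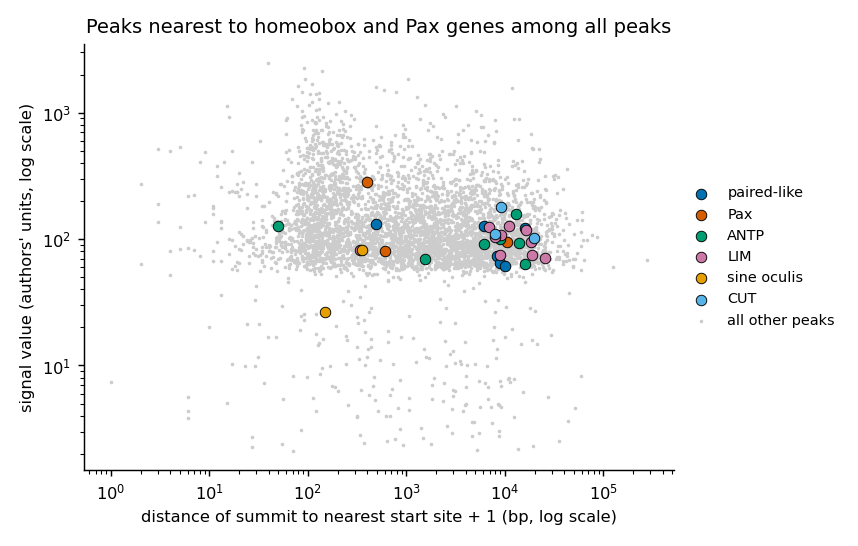
Each point is a peak, with the distance of its summit to the nearest protein-coding start site plus 1 bp on a log axis and its signal value on a log axis; coloured points are the 31 peaks of the members by class and grey points all other peaks. Most coloured points lie between 5 and 30 kb and at signal values of 178.5 or less, apart from the Poxm peak at 280.1.

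Among the Pax genes, Poxm (FBgn0003129, chr3R:8319025-8333792), a Pax gene of the embryonic mesoderm, held the strongest peak of all 49 genes. Its signal value was 280.1 (rank 542), with the summit 395 bp upstream of a start site. Replicate 1 alone gave 132.9 there and replicate 2 alone 151.2, ranks 650 and 482 of their own ranked lists. A weaker peak of 81.0 at 603 bp overlapped it by 27 bp and matched the same peak in each replicate, so the pair was not resolved into separate regions. The gene eyg, an eye and salivary duct Pax gene, had 1 intergenic peak of 93.9, which was 10517 bp from its start site and 12280 bp from that of CG32102. Replicate 1 gave 49.0 at the eyg peak and replicate 2 gave 48.7, and it passed the threshold only in replicate 2. No peak was nearest to the Pax6 genes ey and toy, to toe, the neighbour of eyg, to Poxn, which specifies sensory organs, or to the segmentation genes gsb and gsb-n.

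Among the LIM genes, 10 peaks were assigned by protein-coding start sites and 4 by those of all genes. The gene tup, the fly Islet gene of motor neurons and heart, had 5 peaks by protein-coding start sites, more than any other member, and 1 by those of all genes. Its signal values were 94.4, 81.6, 75.1, 74.8 and 70.6, all in the lower 50% of the list. The peak of 81.6 was 338 bp upstream of the tup start site and held CAGGTG, and the others were 9020 to 25581 bp upstream. At the promoter peak replicate 1 gave 48.4 and replicate 2 gave 33.7, and both passed the threshold. The 4 distal tup peaks were each closer to the start of a noncoding RNA gene (458 to 3330 bp) than to that of tup, and the one of 75.1 was in an exon of lncRNA:CR44739.

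Awh, a LIM gene of the imaginal cells, had 3 peaks with signal values of 123.8, 117.0 and 108.0, and all of them were on the thresholded lists of both replicates. Replicate 1 gave 71.1, 48.7 and 55.7 at these peaks, and replicate 2 gave 47.1, 70.6 and 49.6. The order of the peaks thus differed between the replicates. The peaks of 123.8 and 108.0 were in introns of Awh, at 6895 and 9180 bp from its start. The peaks of 117.0 and 108.0 were closer to lncRNA:CR45379, at 1820 and 9038 bp, than to Awh. Lim1, which acts in leg and antenna development, had intronic peaks of 126.8 and 103.3 at 11095 and 8027 bp. The first passed in both replicates, with 66.7 in replicate 1 and 60.0 in replicate 2. The second passed in replicate 1 alone, with 79.2 against 27.2 in replicate 2, which was the lowest replicate 2 value among the 31 peaks. Lim3, a motor neuron gene, had no peak.

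In the ANTP class, ems, a gap gene of the head, had 4 intergenic peaks with signal values of 159.0, 99.3, 92.3 and 91.6. The peak of 159.0 was 13090 bp downstream of the start site, past the end of the gene. It had 84.3 in replicate 1 and 68.5 in replicate 2. The peak of 99.3 lay between ems and its paralogue E5, 8822 bp from the start of ems and 18115 bp from that of E5. E5 itself had none.

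The maternal anterior determinant bcd had a peak of 127.8 with its summit 49 bp upstream of the start site, the closest of all 31. Replicate 1 gave 67.2 there and replicate 2 gave 63.6, and both passed. A second bcd peak of 69.3 at 1538 bp was almost as near to Ama (1589 bp) and passed in neither replicate. B-H2, a Bar gene of sense organs and eye, had 1 peak of 63.6 at 15931 bp, which passed in neither replicate alone (34.3 in replicate 1 and 32.4 in replicate 2). The members B-H1, bsh, cad, exex, HGTX, lms, ro, scro and unpg had none.

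Of the paired-like genes, oc (orthodenticle), a head and brain gene, had peaks of 127.9 at 6092 bp upstream and 121.5 at 15830 bp downstream. These distances are from different oc start sites, and the summits were 29427 bp apart. Both peaks passed in both replicates. Replicate 1 gave 61.7 and 69.01, and replicate 2 gave 64.7 and 51.6. PHDP had 1 peak of 130.9, which was 488 bp upstream of its start site and passed in replicate 2 alone (54.1 in replicate 1 and 69.4 in replicate 2).

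OdsH, known for its part in hybrid male sterility, had peaks of 73.3 and 64.7, and Vsx1, an optic lobe gene, had 1 of 61.6. None of these 3 peaks overlapped a peak on the thresholded list of either replicate, though the list of replicate 1 held a peak elsewhere at OdsH. The Vsx1 peak was 10091 bp from a start site of Vsx1 and 10121 bp from one of CG34435, so its assignment rests on 30 bp. No peak was nearest to al, Gsc, hbn, otp, Ptx1, repo, Rx or unc-4, which include the glial gene repo and the appendage gene al.

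The eye gene so had peaks of 82.0 and 26.6, at 351 and 147 bp upstream of its start site, which overlapped each other by 132 bp. The first gave 52.3 in replicate 1 and 33.8 in replicate 2 and passed in both, and the second was the weakest of the 31. Optix and Six4 had none. At ct, which gives external sense organs their identity, 3 intronic peaks lay 7984, 9229 and 19542 bp from their nearest ct start sites. They had signal values of 110.0, 178.5 and 101.3 in that order. The peak of 101.3 was measured from another start site than the others and lay 33387 bp from that of 178.5. The ct gene body held 4 summits, with the one not assigned to ct nearest to a start site of CHES-1-like. The peak of 178.5 had the second highest value among the members' peaks, with 84.1 in replicate 1 and 95.2 in replicate 2.

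**Figure D4:**
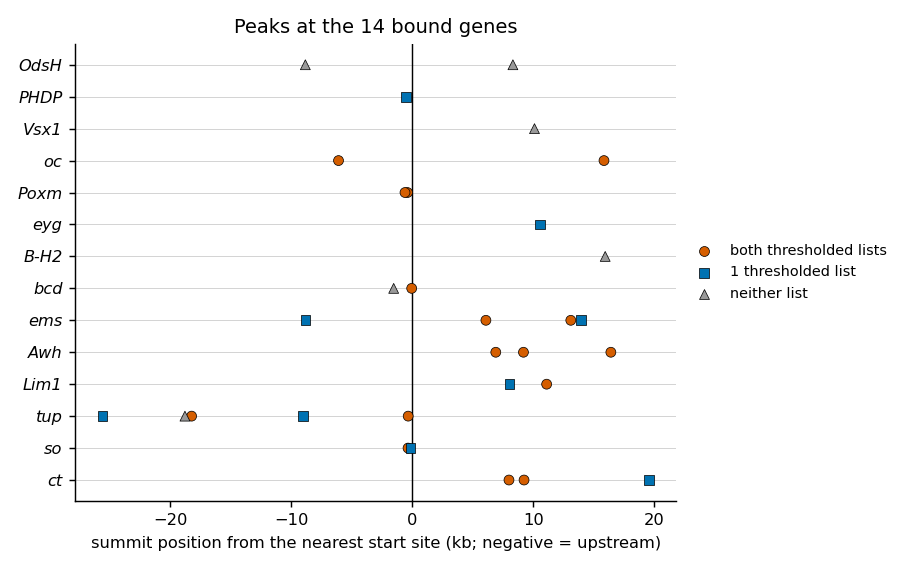
Rows are the 14 genes with a peak and the horizontal axis is the summit position in kb from the nearest start site of the gene, negative upstream; circles, squares and triangles mark peaks that overlap a thresholded peak of both, 1 or neither replicate. The peaks of Awh, Lim1 and ct lie downstream of a start site, and those of tup, Poxm, so, bcd and PHDP lie upstream.

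In 6 adjacent pairs of related genes, at most 1 gene of a pair had a peak. The adjacent pairs ems and E5, OdsH and unc-4, eyg and toe, and B-H2 and B-H1 each had peaks at the first gene and none at the second. In the pairs gsb with gsb-n and achi with vis, neither gene had a peak. As each peak goes to a single nearest gene, and 28.6% of the members had a peak, so few pairs give a description only. The Iroquois complex of ara, caup and mirr, which patterns the eye and the body wall, had no peak over a combined span of 3 loci of 18544.5, 56483.5 and 62490 bp. The closest summits were 46819 bp from a start site of ara, 75778 bp from caup and 56093 bp from mirr.

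Presence in the replicates was near that of all peaks. Of the 31 peaks, 16 (51.6%, exact interval 33.1 to 69.8) overlapped a thresholded peak of both replicates, beside 57.5% of all peaks. This counts an overlap of 1 bp or more. When 50% of both peaks had to overlap, the members' share was 38.7%, with no like value for all peaks given here. Joining overlapping peaks left 29 separate regions. A further 9 peaks overlapped one of a single replicate (29%, beside 24.2% of all peaks), and 6 overlapped none (19.4%, beside 18.2% of all peaks). Before the threshold, all 31 overlapped a ranked peak of both replicates, beside 99.0% of all peaks. The list was selected for agreement between the replicates and the ranked lists are long, so such overlap was nearly fixed in advance. By gene, 9 of the 14 had at least 1 peak on both thresholded lists (Awh, Lim1, Poxm, bcd, ct, ems, oc, so and tup). The like share of all genes with a peak is not given here. The peaks of PHDP and eyg overlapped one on the thresholded list of replicate 2 alone, and those of B-H2, OdsH and Vsx1 overlapped none on either list. The thresholded list of replicate 1 had 20 peaks at 10 of the members (20.4%), beside 15.6% of all genes. That of replicate 2 had 23 peaks at 12 members (24.5%), Optix among them, beside 16.8% of all genes. The numbers of members were 0.792 and 0.890 times those by locus size, for replicate 1 and replicate 2.

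**Figure D5:**
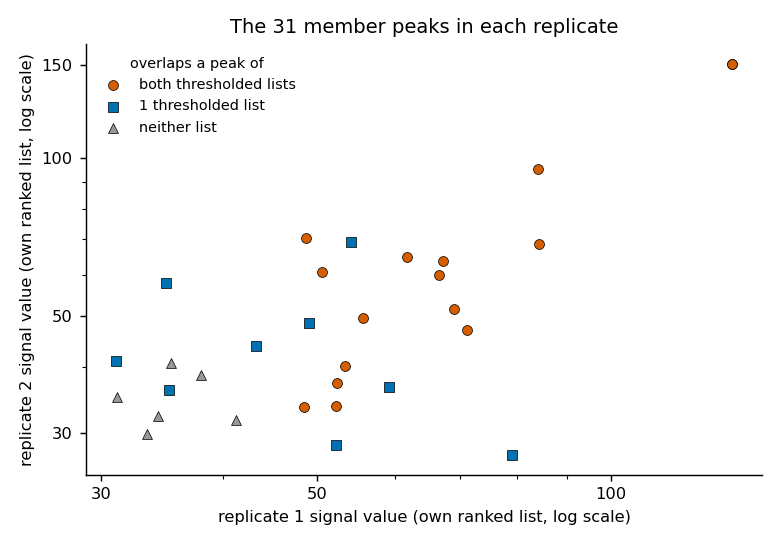
Each point is 1 of the 31 peaks, with the signal value of the overlapping peak in the ranked list of replicate 1 and of replicate 2, both on log axes; the symbol says whether it overlaps a peak of both, 1 or neither thresholded list. The Poxm peaks, drawn on top of each other, stand highest in both replicates, and the 6 triangles lie at 41.3 or below in each.

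The 35 members without a peak also had low values in the ranked lists that precede the threshold. In replicate 1 the strongest ranked peak at these genes had a median signal value of 28.8 (range 18.2 to 42.6, in 34 genes), and at the 14 genes with a peak the median was 60.7 (30.5 to 132.9). In replicate 2 the medians were 19.0 (10.5 to 38.8, in 33 genes) and 61.8 (32.4 to 151.2). The 2 sets follow from the threshold itself and are given as a description. The highest values at genes without a peak were at al in replicate 1 (42.6, rank 3365 of its own list) and at Optix in replicate 2 (38.8, rank 3358). In the other replicate the strongest ranked peak had 21.0 at al (rank 7793) and 30.3 at Optix (rank 6206). These need not be the same sites, and values of the 2 lists are not on 1 scale. The closest summit of the list to a start site of these 35 genes was at 3313 bp for otp, and the median was 18115 bp. The gene scro, with the largest locus at 194884 bp, was 1845264 bp from the closest summit, and the peak density of its size class gave 4.80 peaks over that length.

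Chromosome position went with the count. On the X chromosome 6 of 9 members had a peak (66.7%, exact interval 29.9 to 92.5), beside 22.9% of all genes there. Off the X, 8 of 40 had one (20%, 9.05 to 35.7), beside 19.8% of all genes. Within the largest size class the members' counts were 6 of 8 on the X and 4 of 27 elsewhere, and the shares of all genes were 40.0% and 37.7%. The 6 X-linked genes were B-H2, Lim1, OdsH, Vsx1, ct and oc, and the peaks of 3 of these (B-H2, OdsH and Vsx1) overlapped none on either replicate's thresholded list. This division was made after the data were seen, and its cause was not tested. On chromosome 4 none of ey, toy and zfh2 had a peak, and 2 of the 80 genes there had any.

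Under the summits, motif content was close to that of all peaks. Windows of 100 bp either side were searched on both strands. CAGGTG was in 2 of 31 windows (6.45%, exact interval 0.791 to 21.4), those of tup and Vsx1 printed above, beside 5.28% of all peak windows. Any CANNTG, of which CAGGTG is one, was in 18 (58.1%), beside 57.3%. ACAGTG, a 6-mer chosen from an earlier description of all these peaks, was in 6 (19.4%), at bcd, ems, ct, Awh and so, beside 20.2%. TAATTA, the core of many homeodomain sites, was in 4 (12.9%), beside 19.5%. All peaks weighted to the GC content of the members' windows gave 5.26%, 57.7%, 20.4% and 19.0% for these motifs. The median GC content was 33.8% in the members' windows and 33.3% in all windows.

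Other homeobox genes gave the frame for these counts. A list of 50 homeobox genes outside the 49 had peaks at 16 (32.0%), beside 15.8 by locus size. Hox genes, which set segment identity, were at 5 of 8 with 14 peaks (3.05 genes and 9.63 peaks by locus), and NK genes at 3 of 10 with 5 peaks (3.31 genes). The remaining 32 homeobox genes had peaks at 8, beside 9.45 by locus size. The median rank of the 31 peaks of the members was at 59.0% of the list, that of the 14 Hox peaks at 56.9%, that of the 5 NK peaks at 21.8%, and that of the 23 peaks at the remaining homeobox genes at 56.6%. Median distances were 8832 bp for the members, 10296.5 bp for Hox, 716 bp for NK and 17486 bp for the remaining homeobox peaks. Of the members' peaks 74.2% lay over 5000 bp away, beside 78.3% of the peaks at the remaining homeobox genes, so distant peaks were not particular to the members. Intergenic summits made up 67.7% of the members' peaks, 56.5% of those at the remaining homeobox genes, 80% of the 5 NK peaks and 14.3% of the 14 Hox peaks. A high intergenic share was thus not particular to the members either.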

How the data were processed

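Peak lists from anti-GFP ChIP-seq of 2 replicates of esg-eGFP embryos were used. The deposited text states dm6 coordinates and names the 2 alignments and a control as the input of the peak calls. Aligner and peak caller: not given in the sources used here. The signal value is the authors' own, in a unit that is not stated. The 2 ranked lists of the whole series, each with 8 further columns of values, were not used.

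Start sites of all transcripts of protein-coding genes came from Ensembl release 115 (BDGP 6.54), whose coordinates lie within the arms of the RefSeq assembly that gave the sequence. Transposable elements were left out. Presence in a replicate needed an overlap of at least 1 bp. Locus size was divided into 5 classes of equal gene number. One of the 50 other homeobox genes was matched through an older symbol. Intervals are exact Clopper-Pearson intervals or order statistics at 95% and cover counting error only. Assignment, locus size and overlap were tested on simulated data. Tables were handled with pandas 2.3.3 and numpy 2.4.6 in Python 3.11.15, intervals with scipy 1.17.1 and plots with matplotlib 3.10.9.

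The genes, lists and motifs were chosen with earlier results of these data known, and ACAGTG because an earlier description of all these peaks named it. Every member is named. Members with a peak have their values given, related neighbours are set side by side, and sequences are of the strongest peak per class and of summits with CAGGTG, arm 2R left out. Alternatives were the other list of the series, each replicate alone, the upper 50% by signal value, merged summits, all annotated start sites, and other distances, overlaps, size classes and windows.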

Additional observations from a re-analysis of the deposited data

How the results depend on the processing

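With 2 replicates of 1 group and no read depth, no result has a test, and a value was taken as moved when it left its 95% interval or, for counts, changed by over 1.5 times. No paired analysis was possible because the series has 1 group. Without either replicate the number of members with a peak ran from 10 to 12 (14 with both) and their peaks from 20 to 23 (31 with both). In the upper 50% of the list by signal value there were 8 members (16.3%, beside 12.2% of all genes) with 11 peaks. The median rank of these peaks was 80.4% down that shorter list. Of the 11 peaks, 90.9% were present in both replicates and 0 held CAGGTG. No like values for all peaks of the upper 50% are given here, so neither share can be read as particular to the members. Requiring the summit no more than 1000 bp from the gene's start gave 5 members (10.2%), below the 19.1% of all genes, and counting one in the gene body gave 6 (12.2%, beside 11.1% of all genes). With start sites of all genes the LIM class kept 4 of its 10 peaks. Against the ranked replicate lists, which are longer, 100% of the peaks were present in both replicates, which the selection of the list nearly fixed in advance. Within 200 bp of a start site there were 6.45% of the peaks. The ratio of members with a peak to the number by locus size ran from 0.792 to 1.02 over its 8 alternatives and stayed within its interval, and the median distance ran from 7984 to 9204.5 bp over 6 alternatives.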
